A study of Mus musculus with 10 samples.

Results

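Chemokine ligands are small secreted or membrane-bound proteins that steer leukocytes by binding receptors on their surface. The mouse genome holds them as CC, CXC, XC and CX3C families, named for the spacing of their first cysteines, and many lie side by side in gene clusters. Treg cells are recruited by chemokines through receptors such as CCR4 and CCR8, and activated T cells themselves make ligands such as CCL3, CCL4, CCL5 and XCL1, while macrophages and dendritic cells are main sources of many others. The ligand genes described here were taken by symbol, as every gene of the count table whose name begins with Ccl or Cxcl and a digit, with Xcl1 and Cx3cl1. This gave 41 of 55291 genes. The platelet ligand genes Pf4 and Ppbp do not carry such a symbol and are not among them.

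Transcripts were counted by RNA sequencing in Treg cells sorted with a cell sorter from CD4+ T cells of Foxp3YFP-cre mice, in which a fluorescent protein and Cre recombinase are made from the Foxp3 gene. The Hepa1-6 group (4 libraries) came from tumours that grew for 23 days after Hepa1-6 cells, a mouse hepatoma line, were injected under the skin. The E.G7 group (2 libraries) came from tumours of E.G7 cells, a mouse T lymphoma line, grown for 21 days in the same way, and the LN group (4 libraries) from lymph nodes of mice without a tumour. All groups share the genotype, and tumour type and day of collection cannot be told apart; the sources used here do not say whether replicates came from separate or pooled animals, and the p-values below therefore describe spread among libraries that may be technical repeats.

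Total counts per library lay between 26224286 and 26665325 in Hepa1-6, at 26585350 and 26663336 in E.G7, and between 22665563 and 24472849 in LN. In a principal component analysis the leading component held 72.0% of the variance, and no library stood apart from its group. Markers of the labelled cell type were present in every group: Foxp3, the factor that defines Treg cells, averaged 82.0 ± 11.0 CPM in Hepa1-6, 50.2 ± 4.34 CPM in E.G7 and 109 ± 10.8 CPM in LN libraries (SD, n = 4, 2 and 4), where CPM is the count scaled to a common library size with TMM factors. Of the 10 Treg and CD4 T cell markers, 5 were lower in Hepa1-6 than in LN (Foxp3, Ikzf2, Cd4, Cd3d and Cd3e). In E.G7, 6 were lower than in LN (Foxp3, Il2ra, Ikzf2, Cd4, Cd3e and Trac). Ctla4 and Tnfrsf18 were higher in both tumours, Ctla4 at 1410, 1261 and 410 CPM in Hepa1-6, E.G7 and LN. The level of this list was therefore not even gene by gene. In Hepa1-6 against E.G7, 7 were higher and 0 lower. Markers of other cell types were present too. The 12 macrophage and monocyte markers summed to 4463 to 4801 CPM in Hepa1-6, 873 to 889.9 CPM in E.G7 and 46.9 to 65.2 CPM in LN libraries, with none at 0 and Lyz2 highest in both tumours. The 12 dendritic cell markers summed to 9829 to 10241, 2443 to 2474 and 847 to 955 CPM in the same order of groups. Of these, Ccr7, which T cells also make, gave 732 ± 44.6 CPM of the LN sum and was lower in Hepa1-6 (311 ± 19.8 CPM) than in LN, and without it, a choice made after its values were seen, the sums were 9520 to 9901, 1759.9 to 1819 and 157 to 179 CPM. The 10 CD8 T and NK cell markers summed to 516 to 556, 145 to 146 and 29.8 to 34.4 CPM, with Ncr1 at 0 in LN. What part RNA of such cells had in any ligand level below was not tested, and in these bulk libraries fewer cells of a type and less RNA per cell cannot be told apart.

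The ligand genes as a whole stood far higher in tumour Treg libraries. Their summed level was 3162 ± 164 CPM in Hepa1-6, 463.9 ± 8.69 CPM in E.G7 and 40.6 ± 2.68 CPM in LN libraries (SD, n = 4, 2 and 4), which is 0.290%, 0.0471% and 0.00439% of all counts. Of the 41 genes, 32 were high enough in some group to be tested. In Hepa1-6 against LN, 29 were higher at an edgeR adjusted p under 0.05, where 37.0% of all 20068 genes tested were higher, and 0 were lower, where 31.1% of all were. Their median log2 fold change was 6.92 (7.20 with genes that are nearly absent from LN at their bound or counting ratio), against 0.04 over all genes tested. In E.G7 against LN, 23 were higher, where 32.7% of all genes were, and 0 were lower, where 27.2% were, with a median of 3.14 (3.24 with bounds) against 0.01. In Hepa1-6 against E.G7, 27 were higher, where 26.1% of all genes were, and 0 were lower, where 19.6% were, with a median of 3.27 against 0.06. At an unadjusted p under 0.05, 2 genes (Ccl20 and Ccl25) were lower in Hepa1-6 than in LN and 0 in the other comparisons; DESeq2 called 0 lower in each comparison and limma-voom 2 in Hepa1-6 against LN and 1 in E.G7 against LN.

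Many of these genes passed the filter on low counts through the tumour libraries alone, and such genes had to differ. Applied to LN libraries by themselves, the filter kept 9 ligand genes, of which 7 (Xcl1, Cxcl2, Cxcl10, Cxcl16, Ccl1, Ccl5 and Ccl4) were higher in Hepa1-6 and the same 7 in E.G7. Of the 14940 genes that it kept over the whole table, 31.2% were higher in Hepa1-6 and 30.7% in E.G7. The 2 comparisons share the LN libraries. Counted by libraries that do not overlap, 29 ligand genes were higher and 1 (Ccl20) lower in Hepa1-6 than in LN, where 34.1% and 27.6% of all genes tested were. The counts were 23 and 2 (Ccl20 and Ccl27a) in E.G7 against LN, where 36.6% and 32.6% of all genes were higher and lower, and 29 and 0 in Hepa1-6 against E.G7, where 31.9% and 26.2% were.

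**Figure D1:**
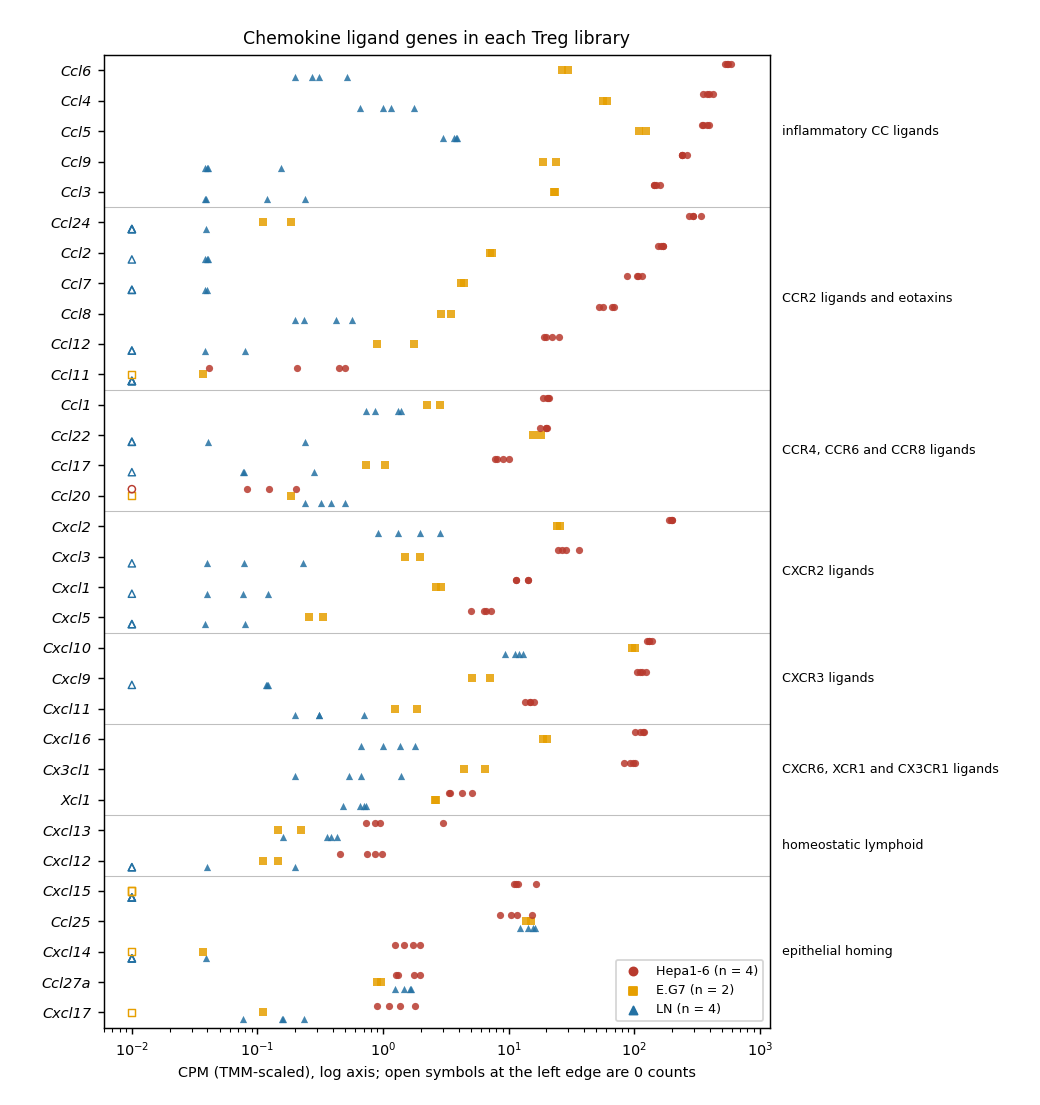
Level of each of the 32 tested ligand genes in each library, as TMM-scaled CPM on a log axis, grouped by the receptors they bind or by role. Points are libraries (Hepa1-6, n = 4; E.G7, n = 2; LN, n = 4) and open symbols at the left edge are libraries with 0 counts. For 29 genes every Hepa1-6 library lies above every LN library, whereas Ccl25, Ccl27a and Ccl20 do not show this.

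Inflammatory CC ligands, which act on monocytes, macrophages and effector T cells through CCR1 and related receptors, included the ligand genes with the highest CPM in Hepa1-6 (Ccl6) and in E.G7 (Ccl5), while in LN libraries Ccl25 and Cxcl10 stood above them. All 5 (Ccl3, Ccl4, Ccl5, Ccl6 and Ccl9) were higher in both tumours than in LN and higher in Hepa1-6 than in E.G7. They lie together on chromosome 11 (83525778 to 83664683, mm10). Ccl4, which encodes the macrophage inflammatory protein MIP-1 beta, was read at 392, 355, 379 and 423 CPM in Hepa1-6 libraries, at 56.4 and 61.1 CPM in E.G7 libraries and at 1.78, 1.16, 1.00 and 0.66 CPM in LN libraries. Its neighbour Ccl3, which encodes MIP-1 alpha, stood at 150.4, 144, 143 and 162 CPM in Hepa1-6, at 23.3 and 22.8 CPM in E.G7 and at 0.119, 0.0386, 0.241 and 0.0388 CPM in LN libraries. The groups did not overlap for either gene, and their libraries kept the same order, Hepa1-6 above E.G7 above LN. Ccl4 was 336-fold higher in Hepa1-6 (log2 8.39, SE 0.15, edgeR adjusted p = 4.52e-15) and 50.9-fold higher in E.G7 than in LN (log2 5.67, SE 0.16, adjusted p = 1.77e-12). Ccl3 had a log2 fold change of 10.37 (SE 0.17) for Hepa1-6 and 7.67 (SE 0.20) for E.G7 over LN, values that became 11.06 and 8.36 without LN replicate 3.

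Ccl5 encodes RANTES, a ligand made by T and NK cells as well as by macrophages. It was counted at 379.6, 352, 349.8 and 393 CPM in Hepa1-6, at 109.8 and 123 CPM in E.G7 and at 3.84, 3.01, 3.86 and 3.65 CPM in LN libraries, with no overlap between groups. Among the 5 genes it had the smallest fold between the tumours, 3.16 (95% interval 2.79 to 3.58). Its fold over LN in E.G7 was 32.5 (log2 5.02, SE 0.09, adjusted p = 1.14e-15). The CD8 T and NK cell markers, 9 of 10 higher in Hepa1-6 and 8 of 10 higher in E.G7 than in LN, had a ratio of summed levels of 3.66 between Hepa1-6 and E.G7. For the macrophage and monocyte markers that ratio was 5.24. Which cells the Ccl5 reads came from was not tested.

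Ccl6 and Ccl9 encode rodent ligands of CCR1 that are typical products of myeloid cells. Ccl6 had the most reads of all 41 genes in Hepa1-6, with 563, 529, 553 and 596 CPM there, 29.5 and 26.9 CPM in E.G7 and 0.514, 0.27, 0.201 and 0.311 CPM in LN libraries. Ccl9 was read at 241, 242, 239 and 264 CPM in Hepa1-6, at 23.7 and 18.9 CPM in E.G7 and at 0.0395, 0.0386, 0.0402 and 0.155 CPM in LN libraries. Every tumour library of both genes lay well above every LN library. Ccl6 was 1703-fold and 85.7-fold higher in Hepa1-6 and E.G7 than in LN, and Ccl9 had log2 fold changes of 11.71 (SE 0.16) and 8.18 (SE 0.21), which became 12.44 and 8.90 without LN replicate 4. Between the tumours Ccl6 differed 19.9-fold (95% interval 17.2 to 23.0) and Ccl9 11.6-fold (9.80 to 13.7). The macrophage and monocyte markers, 12 of 12 higher in each of the 3 comparisons, had summed levels 5.24 times as high in Hepa1-6 as in E.G7.

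Genes of monocyte chemoattractants, the ligands of CCR2, formed the next group. Of the 7 genes of CCR2 ligands and eotaxins, 6 were tested, 6 were higher in Hepa1-6 and 5 in E.G7 than in LN, and 6 were higher in Hepa1-6 than in E.G7. Ccl2, which encodes the monocyte attractant MCP-1, was at 169, 155, 165 and 169 CPM in the Hepa1-6 libraries and at 7.39 and 7.18 CPM in those of E.G7, while the 4 LN libraries held 3 reads together. Ccl7, which encodes MCP-3, was at 106, 87.5, 108 and 116 CPM in the Hepa1-6 libraries and at 4.38 and 4.16 CPM in those of E.G7, against 2 reads over the LN libraries. Such LN levels are counts of a few reads, and the ratios to them carry wide counting intervals. For Ccl2 the ratio to LN was 5586 in Hepa1-6 (95% counting interval 1911 to 27092) and 247 in E.G7 (84.0 to 1205), and for Ccl7 it was 5311 (1469.8 to 43859.9) and 218 (59.5 to 1807). Against E.G7, Hepa1-6 libraries had 22.6-fold more Ccl2 (95% interval 19.4 to 26.3) and 24.4-fold more Ccl7 (19.4 to 30.6).

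Ccl8 and Ccl12 complete this stretch of chromosome 11. Ccl8, whose protein acts on CCR8 in the mouse, was at 56.5, 52.5, 66.8 and 69.7 CPM in Hepa1-6, at 3.49 and 2.91 CPM in E.G7 and at 0.198, 0.424, 0.562 and 0.233 CPM in LN libraries. Ccl12, which encodes MCP-5, was at 19.9, 19.0, 22.2 and 25.4 CPM in the Hepa1-6 libraries and at 0.892 and 1.77 CPM in those of E.G7, against 3 reads over the LN libraries. For both genes the Hepa1-6 libraries lay apart from all others. Ccl8 was 171-fold higher in Hepa1-6 (log2 7.42, SE 0.20) and 8.94-fold higher in E.G7 than in LN (log2 3.16, SE 0.28, edgeR adjusted p = 7.06e-08). Ccl12 was 734 times (251 to 3564) and 45.2 times (14.9 to 224) its LN level; its fitted log2 fold changes of 9.30 and 5.28 became 10.23 and 6.21 without LN replicate 1.

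Ccl24, the gene for eotaxin-2, a CCR3 ligand that attracts eosinophils and is made by alternatively activated macrophages, differed most between the tumours. It was read at 297, 272, 295 and 340.1 CPM in Hepa1-6 libraries and at 0.186 and 0.11 CPM in E.G7 libraries, and a single LN read lay in replicate 4. It was thus among the highest ligand genes in Hepa1-6 and close to the counting floor elsewhere, where 3 counts over a group are 0.0555 CPM in E.G7 and 0.0295 CPM in LN. The fold of Hepa1-6 over E.G7 was 1968 (95% interval 1459 to 2653, log2 10.94, edgeR adjusted p = 2.85e-15). E.G7 libraries also passed the test against LN (adjusted p = 0.00377), on 8 reads against 1, a ratio of 15.1 with a counting interval from 2.02 to 669. The fitted log2 fold changes over LN, 14.32 for Hepa1-6 and 3.37 for E.G7, became 15.89 and 4.95 without LN replicate 4. The other eotaxin genes were low, with Ccl11 at 29 reads over the Hepa1-6 libraries, 1 read over E.G7 and 0 over LN, and Ccl26 at 0 in all 10 libraries. Ccl11 was at least 10.1-fold higher in Hepa1-6 than in LN, and its call against E.G7 (ratio 16.1, counting interval 2.68 to 659.6, adjusted p = 0.0479) was lost under several alternatives, among them DESeq2 (adjusted p = 0.106) and the omission of E.G7 replicate 1 (0.123) or 2 (0.296).

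Ligands of CCR4 and CCR8, the receptors best known from Treg cells, behaved unlike each other between the tumours. Ccl22, which encodes the CCR4 ligand MDC made mainly by dendritic cells and macrophages, was at 19.9, 19.98, 20.1 and 17.7 CPM in Hepa1-6, at 15.8 and 18.0 CPM in E.G7 and at 0.237, 0, 0.0402 and 0 CPM in LN libraries. It is given library by library, though its mean is under 20 CPM, a choice made after its values were seen. The tumour groups overlapped and both lay above all LN libraries. The log2 fold change over LN was 8.04 (SE 0.34) in Hepa1-6 and 7.84 (SE 0.37) in E.G7, and 10.07 and 9.87 without LN replicate 1, which held most of the LN reads. Hepa1-6 was 1.15-fold higher than E.G7 with a 95% interval from 0.828 to 1.59 (edgeR adjusted p = 0.503), so that a difference of up to 1.59-fold is within the interval. Ccl17, the other CCR4 ligand gene and its neighbour on chromosome 8, averaged 8.71 ± 1.03 CPM in Hepa1-6, 0.888 ± 0.215 CPM in E.G7 and 0.109 ± 0.120 CPM in LN libraries (SD, n = 4, 2 and 4), and differed 9.76-fold between the tumours (5.55 to 17.2). Its log2 fold changes over LN, 6.27 and 2.98, became 7.26 and 3.97 without LN replicate 3.

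Ccl1, which encodes a CCR8 ligand made by activated T cells, was at 20.2, 18.9, 21.0 and 20.5 CPM in Hepa1-6, at 2.23 and 2.87 CPM in E.G7 and at 0.87, 0.733, 1.33 and 1.40 CPM in LN libraries. The libraries again fell into 3 levels without overlap, with E.G7 close above LN. The fold over LN was 18.6 in Hepa1-6 (log2 4.22, SE 0.19, adjusted p = 1.01e-11) and 2.35 in E.G7 (log2 1.24, SE 0.24, adjusted p = 3.32e-04). Ccl20, which encodes the ligand of CCR6, was low in every library, with 10 reads over Hepa1-6, 5 over E.G7 and 37 over LN. It did not pass the main test in any comparison (edgeR adjusted p = 0.0566 for Hepa1-6 against LN). For Hepa1-6 against LN, Ccl20 passed as lower with upper-quartile scaling (adjusted p = 0.0361), limma-voom (0.0220) and without Hepa1-6 replicate 1 (0.0343). For E.G7 against LN it passed as lower with limma-voom (0.0378). Its log2 fold change there, -1.91, became -6.21 without E.G7 replicate 1.

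Ligands of CXCR2, which draw neutrophils, were all higher in the tumours, 4 of 4 in both comparisons with LN and 4 of 4 in Hepa1-6 against E.G7. Cxcl2, which encodes MIP-2, was at 200.1, 196, 191 and 199 CPM in Hepa1-6, at 25.7 and 24.4 CPM in E.G7 and at 0.909, 1.97, 2.85 and 1.32 CPM in LN libraries. Cxcl3 was at 26.7, 24.9, 28.9 and 36.2 CPM in Hepa1-6, at 1.49 and 1.99 CPM in E.G7 and at 0.0395, 0.231, 0 and 0.0777 CPM in LN libraries. Neither gene overlapped between groups. Cxcl2 was 112-fold higher in Hepa1-6 and 14.2-fold higher in E.G7 than in LN, and 7.86-fold higher in Hepa1-6 than in E.G7 (95% interval 5.89 to 10.5). Cxcl3 had log2 fold changes over LN of 8.29 (SE 0.32) and 4.22 (SE 0.47), or 9.35 and 5.28 without LN replicate 2. Cxcl1, which encodes the neutrophil attractant KC, averaged 12.9 ± 1.63, 2.77 ± 0.19 and 0.0593 ± 0.0515 CPM in Hepa1-6, E.G7 and LN libraries, and Cxcl5, which encodes LIX, 6.32 ± 0.966, 0.296 ± 0.0543 and 0.0297 ± 0.0383 CPM (SD, n = 4, 2 and 4). For Cxcl5 the log2 fold changes over LN of 7.52 and 3.13 became 8.46 and 4.06 without LN replicate 3. The 10 neutrophil markers summed to 38.6 to 48.2 CPM in the Hepa1-6 libraries, 6.70 and 6.91 CPM in E.G7 and 0.158 to 1.59 CPM in LN libraries. Of the 8 tested, 8 were higher in Hepa1-6 and 4 in E.G7 than in LN, while S100a9, Ly6g and Retnlg were at 0 in LN, and Elane and Camp in E.G7.

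Ligands of CXCR3, which are induced by interferon gamma and draw Th1 and CD8 T cells, split between genes that lie next to each other. Cxcl9 was at 106, 112, 116 and 125 CPM in Hepa1-6, at 7.13 and 5.12 CPM in E.G7 and at 0.119, 0, 0.121 and 0.117 CPM in LN libraries. Cxcl10, which encodes IP-10, was at 131, 131, 127 and 138 CPM in Hepa1-6, at 95.9 and 101 CPM in E.G7 and at 11.3, 13.0, 12.2 and 9.36 CPM in LN libraries. The levels of these neighbours were close together in Hepa1-6 and far apart in E.G7 and LN. Over E.G7, Hepa1-6 had 18.7-fold more Cxcl9 (95% interval 14.8 to 23.8, edgeR adjusted p = 9.42e-12) but 1.34-fold more Cxcl10 (1.16 to 1.54, adjusted p = 0.00165), a call that a rule with a minimum fold of 2 would drop. Over LN, Cxcl10 was 11.5-fold higher in Hepa1-6 and 8.59-fold higher in E.G7, and Cxcl9 1231-fold and 65.7-fold. Cxcl11, the remaining ligand gene of the receptor, averaged 14.8 ± 0.987, 1.55 ± 0.429 and 0.383 ± 0.225 CPM in Hepa1-6, E.G7 and LN libraries (SD, n = 4, 2 and 4) and differed 9.47-fold between the tumours. The exons of Cxcl10 overlap those of Art3, which averaged 0.927 CPM in Hepa1-6, 1.94 CPM in E.G7 and 4.66 CPM in LN libraries, so that reads of the shared bases may have been assigned to either gene.

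The promoters of 5 CXC genes from 2 clusters on chromosome 5 are shown because these genes took different folds between the tumours: Cxcl1, Cxcl2 and Cxcl3, which attract neutrophils, and Cxcl10 and Cxcl9, of which the first was high in both tumours and the second in Hepa1-6. Each is the 250 bases before the RefSeq start on GRCm38.p6, the build also named mm10, written 5′ to 3′ on the strand of the gene. Capitals mark matches to the NF-kB motif, given by its name, and to the interferon response motif (GAAA, any 2 bases, GAAA), searched on both strands.
Cxcl1, chr5:90890995-90891244, plus strand: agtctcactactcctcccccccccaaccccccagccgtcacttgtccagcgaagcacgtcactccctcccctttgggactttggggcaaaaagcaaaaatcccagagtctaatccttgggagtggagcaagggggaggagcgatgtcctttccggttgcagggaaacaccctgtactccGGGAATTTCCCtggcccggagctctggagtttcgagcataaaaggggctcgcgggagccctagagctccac
Cxcl2, chr5:90903649-90903898, plus strand: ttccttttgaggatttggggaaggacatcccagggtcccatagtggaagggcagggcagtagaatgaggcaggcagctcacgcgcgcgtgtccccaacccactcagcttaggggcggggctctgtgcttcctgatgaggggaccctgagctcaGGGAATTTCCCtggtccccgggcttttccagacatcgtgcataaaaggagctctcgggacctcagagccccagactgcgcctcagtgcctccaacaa
Cxcl3, chr5:90785851-90786100, plus strand: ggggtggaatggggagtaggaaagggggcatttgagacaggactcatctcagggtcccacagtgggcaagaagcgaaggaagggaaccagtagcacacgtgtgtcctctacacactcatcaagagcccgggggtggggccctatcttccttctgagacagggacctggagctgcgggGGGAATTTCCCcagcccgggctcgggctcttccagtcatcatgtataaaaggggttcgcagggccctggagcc
Cxcl10, chr5:92348890-92349139, minus strand: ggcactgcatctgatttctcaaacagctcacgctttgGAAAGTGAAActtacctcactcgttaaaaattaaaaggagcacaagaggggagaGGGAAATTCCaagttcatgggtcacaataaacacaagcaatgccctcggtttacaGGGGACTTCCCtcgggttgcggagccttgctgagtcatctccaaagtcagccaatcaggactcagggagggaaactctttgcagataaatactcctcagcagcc
Cxcl9, chr5:92328080-92328329, minus strand: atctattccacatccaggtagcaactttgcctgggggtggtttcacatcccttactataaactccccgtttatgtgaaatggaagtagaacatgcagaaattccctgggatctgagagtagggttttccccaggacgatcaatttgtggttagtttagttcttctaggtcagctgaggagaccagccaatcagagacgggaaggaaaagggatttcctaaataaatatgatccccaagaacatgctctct
The capitals of Cxcl1, Cxcl2 and Cxcl3 are an NF-kB match with the same letters. Cxcl10 has an interferon response match, the first run of capitals, followed by 2 NF-kB matches, and Cxcl9 has no match in this window. In the RefSeq table, which held 34 promoters of 28 of the 41 genes, the NF-kB motif was found in 7 (20.6%), against 7.25% of all 32851 promoters, and the interferon response motif in 3 (8.82%), against 2.98%. The 2 motifs were found together in 1 promoter of these genes. These matches describe letters, and binding was not measured.

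Membrane-bound and lymphocyte-derived ligands made up a further group. Cxcl16 encodes the transmembrane ligand of CXCR6. It was at 101, 111, 120.5 and 119 CPM in Hepa1-6, at 18.9 and 20.1 CPM in E.G7 and at 0.672, 1.00, 1.81 and 1.36 CPM in LN libraries, without overlap. The fold over LN was 93.1 in Hepa1-6 (log2 6.54, SE 0.16) and 16.1 in E.G7 (log2 4.01, SE 0.18), and 5.79 between the tumours (95% interval 4.58 to 7.32). Its exons overlap those of Zmynd15, at 10.3 CPM in Hepa1-6, 5.33 CPM in E.G7 and 0.217 CPM in LN libraries, so that part of the reads may belong to that gene. Cx3cl1, which encodes fractalkine, a membrane-bound ligand typical of endothelium, epithelium and neurons, was at 102, 98.4, 92.1 and 82.9 CPM in Hepa1-6, at 6.47 and 4.38 CPM in E.G7 and at 0.672, 0.54, 0.201 and 1.40 CPM in LN libraries. The Hepa1-6 libraries lay more than an order of magnitude above the others, with a fold of 17.3 over E.G7 (11.2 to 26.7) and 132 over LN, and E.G7 was 7.63-fold above LN (adjusted p = 2.17e-05). Xcl1, which encodes lymphotactin, made by activated CD8 T and NK cells, averaged 4.03 ± 0.828 CPM in Hepa1-6, 2.63 ± 0.0178 CPM in E.G7 and 0.647 ± 0.114 CPM in LN libraries (SD, n = 4, 2 and 4). It was 6.19-fold and 4.03-fold higher than in LN, and the tumours differed 1.54-fold with an unadjusted 95% interval from 1.04 to 2.27 that did not pass the threshold after adjustment (adjusted p = 0.0704).

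Markers of stroma and of the tumour cells were read in the same libraries. Marker counts, here and above, stand against the shares of all genes tested. In Hepa1-6 against LN, 37.0% were higher and 31.1% lower. In E.G7 against LN these shares were 32.7% and 27.2%, and in Hepa1-6 against E.G7 26.1% and 19.6%. The 12 stromal and endothelial markers summed to 295 to 318 CPM in Hepa1-6, 113 to 128 CPM in E.G7 and 223 to 239.8 CPM in LN libraries, where Col3a1, Dcn and Vwf were at 0. Of the 11 tested, 10 were higher in Hepa1-6 and 9 in E.G7 than in LN. The endothelial gene Pecam1, also made by leukocytes, carried the LN sum and was lower in both tumours, with 72.6 ± 4.62 CPM in Hepa1-6, 78.7 ± 12.1 CPM in E.G7 and 228 ± 8.35 CPM in LN libraries (SD, n = 4, 2 and 4). Without it, again a choice made after its values were seen, the sums were 225 to 238, 40.7 to 42.5 and 1.62 to 3.30 CPM. The 12 hepatoma markers summed to 2663 to 2706 CPM in Hepa1-6, 117 to 122 CPM in E.G7 and 7.79 to 10.1 CPM in LN libraries, with Trf highest in both tumours, and the albumin gene Alb averaged 370 ± 9.96 CPM in Hepa1-6, 0.0554 CPM in E.G7 and 0.0389 CPM in LN. All 8 tested were higher in Hepa1-6 than in LN; in E.G7 4 were higher and Afp, which encodes alpha-fetoprotein, was lower than in LN (1.96 ± 0.405 CPM against 6.48 ± 0.578 CPM). Serpina1a was at 0 in all groups, Ttr and Fgb in E.G7, and Fga and Hnf4a in LN. The ratio of Hepa1-6 to E.G7 was 22.4 for the summed hepatoma markers, 5.24 for those of macrophages and monocytes, 6.36 for neutrophils, 4.08 for dendritic cells (5.44 without Ccr7), 3.66 for CD8 T and NK cells and 1.16 for Treg and CD4 T cells. Trf carried most of the E.G7 hepatoma sum, at 115 ± 3.63 CPM there and 1251 ± 53.4 CPM in Hepa1-6. Of the 8 hepatoma markers tested, 7 were higher in Hepa1-6 than in E.G7, and Apoa2 was not called. Cd74, H2-Aa, H2-Ab1 and H2-Eb1 carried most of the dendritic cell sum in both tumours. Of the 12 dendritic cell markers, 8 were higher in Hepa1-6 than in E.G7, Flt3 and Zbtb46 were not called, and Ccr7 and Fscn1 were lower. The summed B cell markers, 8 genes, were lowest in Hepa1-6, at 381 to 454, 644 to 649 and 858 to 977 CPM in Hepa1-6, E.G7 and LN libraries. The 7 thymocyte markers were at 244 to 260.1, 138 to 149 and 105 to 111 CPM in the same order. Cd8a and Cd8b1, also in the CD8 T and NK list, carried the Hepa1-6 thymocyte sum, at 130 ± 3.45 and 66.5 ± 4.74 CPM there. Of the 4 thymocyte markers tested, 3 were higher in Hepa1-6 than in E.G7. Dntt was lower, at 2.84 ± 0.172 CPM in Hepa1-6, 46.6 ± 4.50 CPM in E.G7 and 2.30 ± 0.393 CPM in LN libraries.

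**Figure D2:**
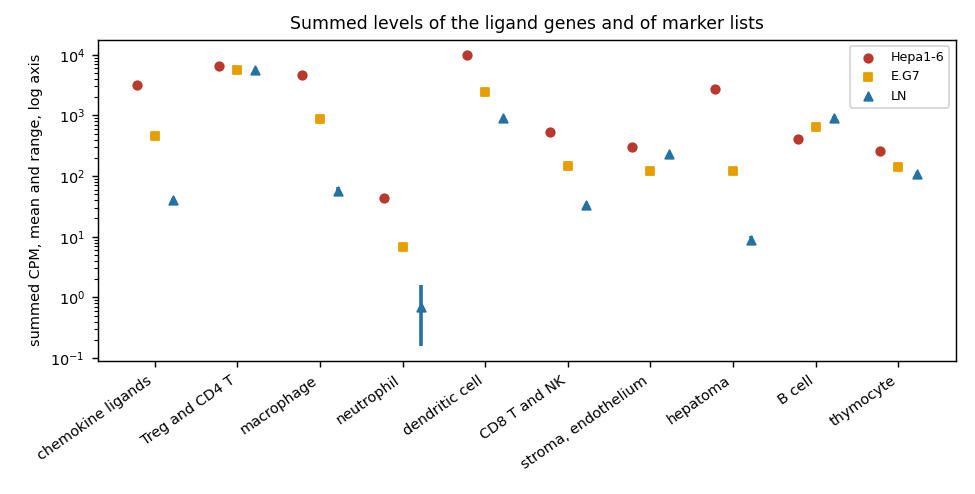
Summed level of the 41 ligand genes and of the marker lists, as TMM-scaled CPM on a log axis. Points are group means (Hepa1-6, n = 4; E.G7, n = 2; LN, n = 4) and lines the range over libraries. The ligand genes average 3162 CPM in Hepa1-6, 463.9 CPM in E.G7 and 40.6 CPM in LN, an order that the macrophage, neutrophil, dendritic cell, CD8 T and NK cell, hepatoma and thymocyte lists take too. For the Treg and CD4 T cell list the sums of E.G7 and LN overlap, though 6 of its genes were lower and 2 higher in E.G7. The lists of stroma and endothelium and of B cells have other orders. Without Pecam1, left out after its values were seen, the stroma and endothelium list averages 234, 41.6 and 2.82 CPM in Hepa1-6, E.G7 and LN. That is the order of the ligand genes. The thymocyte list shares Cd8a and Cd8b1 with the CD8 T and NK cell list, and its Dntt was highest in E.G7.

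Ligands of epithelium and of lymphoid organs differed widely in level. Cxcl15, which encodes lungkine, a ligand known from mouse lung epithelium, averaged 12.7 ± 2.65 CPM in Hepa1-6 (SD, n = 4), with replicate 4 at 16.7 CPM and the others at 11.0 to 11.8 CPM, and had 0 reads in all E.G7 and LN libraries. It was at least 229-fold higher in Hepa1-6 than in E.G7 and at least 432-fold higher than in LN. Cxcl14, an epithelial ligand gene, averaged 1.61 ± 0.32 CPM in Hepa1-6 (SD, n = 4), with 1 read each over E.G7 and LN, and Cxcl17, known from mucosal epithelium, averaged 1.30 ± 0.393 CPM in Hepa1-6, 0.0557 ± 0.0788 CPM in E.G7 and 0.157 ± 0.0637 CPM in LN libraries (SD, n = 4, 2 and 4). Both were higher in Hepa1-6 than in E.G7 and LN (adjusted p = 1.72e-05 and 2.19e-07 for Cxcl14, 2.08e-04 and 7.57e-05 for Cxcl17), on ratios that rest on 1 to 3 reads in E.G7 (86.9, counting interval 15.4 to 3453, and 23.4, interval 7.82 to 115). The fitted log2 fold over E.G7 was 6.10 for Cxcl14, 8.34 without E.G7 replicate 1 and 5.25 without replicate 2, and 4.43 for Cxcl17, 8.03 and 3.48 without the same libraries. The log2 fold of Cxcl14 over LN, 6.77, became 8.35 without LN replicate 4, which held the read.

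Cxcl13, the B cell follicle ligand gene, and Cxcl12, the stromal ligand gene of CXCR4, were higher in Hepa1-6 at low levels. Cxcl13 averaged 1.39 ± 1.08 CPM in Hepa1-6, 0.185 ± 0.0536 CPM in E.G7 and 0.332 ± 0.118 CPM in LN libraries (SD, n = 4, 2 and 4), with Hepa1-6 replicate 3 at 3.01 CPM. Without that library its log2 fold change was 1.34 rather than 2.05 over LN and 2.17 rather than 2.88 over E.G7, and without E.G7 replicate 2 the call against E.G7 was lost (adjusted p = 0.0503). Cxcl12 averaged 0.762 ± 0.228, 0.129 ± 0.0253 and 0.0601 ± 0.0957 CPM in Hepa1-6, E.G7 and LN libraries. Its log2 fold of 3.58 for Hepa1-6 over LN became 5.41 without LN replicate 3, where E.G7 over LN also passed the test (2.90, adjusted p = 0.0382, against 1.07, adjusted p = 0.391). Its call against E.G7 (adjusted p = 0.0257) was lost without E.G7 replicate 1 (0.168) or 2 (0.129). The T zone ligand genes Ccl19, Ccl21a, Ccl21b and Ccl21d, and the pseudogenes Ccl19-ps1 and Ccl19-ps3, had 0 reads in all 10 libraries, LN included; the Ccl19, Ccl21 and Ccl27 genes are families of near-identical copies, in which reads can be lost or split.

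Ccl25 and Ccl27a, which encode gut- and skin-homing ligands, were as high in LN as in tumours or nearly so. Ccl25 was at 10.4, 8.52, 15.3 and 11.7 CPM in the Hepa1-6 libraries, 15.0 and 13.9 CPM in E.G7 and 15.8, 12.4, 16.2 and 14.4 CPM in LN libraries, with all groups overlapping, values that are given for each library by a choice made after they were seen. Its fold was 0.782 for Hepa1-6 over LN (95% interval 0.619 to 0.988, edgeR adjusted p = 0.0584), 0.981 for E.G7 over LN (0.74 to 1.30) and 0.797 for Hepa1-6 over E.G7 (0.601 to 1.06). For Hepa1-6 over LN it passed the threshold as lower with limma-voom (adjusted p = 0.0391), upper-quartile scaling (0.00782) and the replicate block (0.0208). It also passed with no filter on low counts (0.0332), with the filter of 10 CPM (0.0263), and without Hepa1-6 replicate 3 (0.00532) or LN replicate 2 (0.0314). Its exons overlap those of Elavl1, a gene at 229, 241 and 197 CPM in Hepa1-6, E.G7 and LN libraries, so that its level is uncertain. Ccl27a averaged 1.59 ± 0.343, 0.924 ± 0.046 and 1.5 ± 0.191 CPM (SD, n = 4, 2 and 4) and shares exon bases with Il11ra1. Its fold was 1.06 for Hepa1-6 over LN (0.724 to 1.54), 0.617 for E.G7 over LN (0.379 to 1.00) and 1.71 for Hepa1-6 over E.G7 (1.05 to 2.79, adjusted p = 0.0687). Ccl27b had 1 read in all, and Ccl28 had 13 reads in LN replicate 1 and 1 read in E.G7 replicate 1.

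The spread of the folds between the tumours was wide. Among the 23 genes called higher in E.G7 than in LN, the fold of Hepa1-6 over E.G7 ran from 1.15 for Ccl22 to 1968 for Ccl24, with a median of 9.76. It was under 2 for 3 genes (Ccl22, Cxcl10 and Xcl1), between 2 and 10 for 9, between 10 and 30 for 10 and above that for Ccl24. Of these 23 genes, 21 passed the test between the tumours, Ccl22 and Xcl1 being the exceptions. A further 6 genes (Ccl11, Cxcl12, Cxcl13, Cxcl14, Cxcl15 and Cxcl17) were called over LN in Hepa1-6 and not in E.G7, and each was also called higher in Hepa1-6 than in E.G7, with the exceptions under leave-one-out given above.

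**Figure D3:**
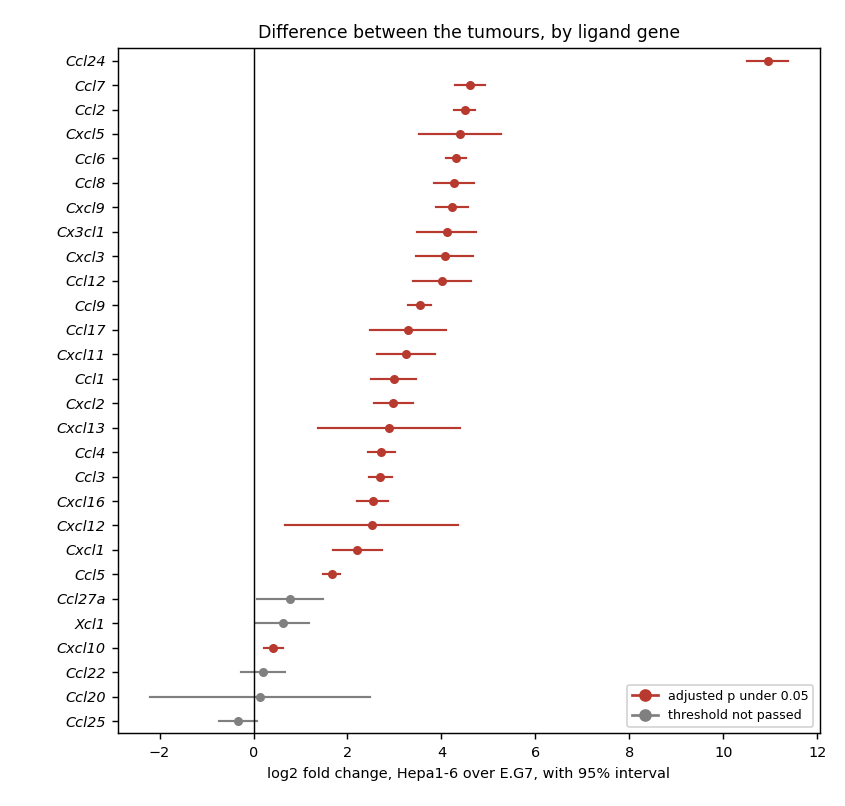
Log2 fold change of Hepa1-6 (n = 4) over E.G7 (n = 2) for the 28 tested ligand genes with more than 3 reads in both groups, with unadjusted 95% intervals; red marks an edgeR adjusted p under 0.05. Ccl24 stands apart at 10.94, most genes lie between 1.66 and 4.61, and Ccl22, Xcl1, Ccl27a, Ccl20 and Ccl25 did not pass the threshold.

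The fold between the tumours varied within gene clusters, though some neighbours, such as Ccl2 and Ccl7 (22.6 and 24.4), were close; differences between neighbours were not tested. Clusters were taken as genes within 250 kb of the next. In the chromosome 5 cluster at 90759360 to 90905938 (mm10), which holds Cxcl5, Cxcl3, Cxcl15, Cxcl1 and Cxcl2, the fold of Hepa1-6 over E.G7 ran from 4.63 for Cxcl1 to 21.0 for Cxcl5, and Cxcl15 had no E.G7 read. In the cluster at 92321347 to 92365485 on the same chromosome, it ran from 1.34 for Cxcl10 to 18.7 for Cxcl9. On chromosome 8 (94745590 to 94812036), Cx3cl1 lies between Ccl22 and Ccl17, with folds of 17.3, 1.15 and 9.76. On chromosome 11 the cluster of Ccl2, Ccl7, Ccl11, Ccl12, Ccl8 and Ccl1 (82035571 to 82305690) had folds of 7.89 to 24.4 for its 5 genes with more than 3 reads in E.G7, and that of Ccl5, Ccl9, Ccl6, Ccl3 and Ccl4 folds of 3.16 to 19.9.

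**Figure D4:**
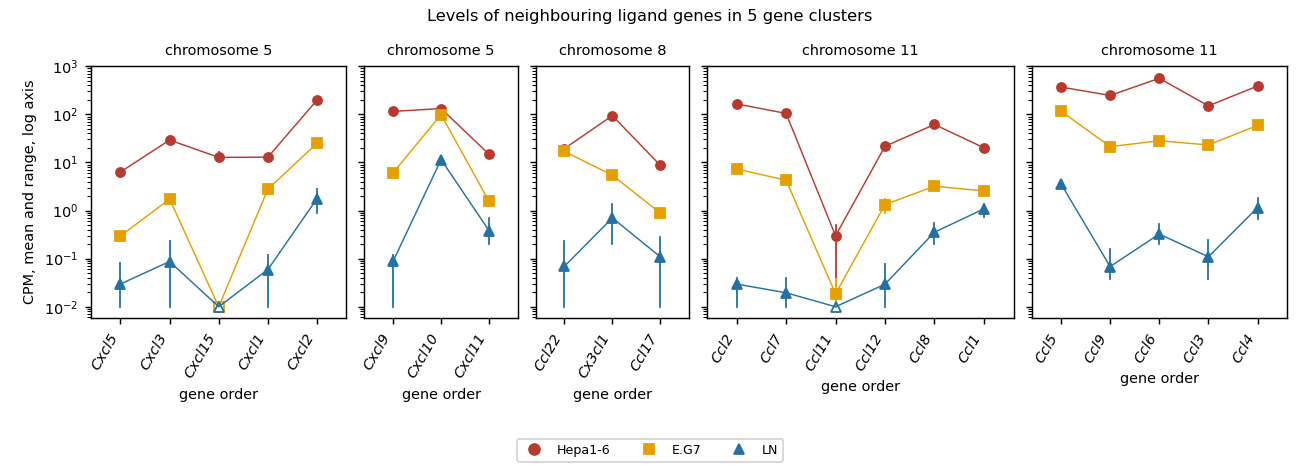
Mean TMM-scaled CPM, on a log axis, of ligand genes in 5 clusters, in their order along the chromosome, with lines for the range over libraries (Hepa1-6, n = 4; E.G7, n = 2; LN, n = 4) and open symbols for 0 counts. The Hepa1-6 and E.G7 levels come close at Cxcl10 (132 and 98.5 CPM) and Ccl22 (19.4 and 16.9 CPM) and lie apart at the genes beside them.

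The make-up of the ligand transcripts differed between the groups when compared per gene length, as RPKM. In Hepa1-6, Ccl4 was highest at 587 ± 42.8 RPKM, or 23.0% of the summed RPKM of the 41 genes, followed by Ccl5 at 384 ± 22.1 (15.0%), Ccl6 at 312 ± 15.4 (12.2%), Ccl24 at 232 ± 22.1 (9.09%) and Ccl3 at 196 ± 11.3 RPKM (SD, n = 4). Ccl2, Ccl7 and Ccl8 came next at 145 ± 5.76, 130.2 ± 14.9 and 120.1 ± 16.04 RPKM, where each neighbour lay within the spread of the next. In E.G7, Ccl5 led with 121 ± 10.1 RPKM (32.8%), before Ccl4 with 89.0 ± 4.94 (24.1%), Cxcl10 with 43.7 ± 1.65 (11.8%), Ccl3 with 30.1 ± 0.443 and Ccl6 with 15.7 ± 1.04 RPKM (SD, n = 2). Ccl22 was at 7.27 ± 0.682 RPKM there, within the spread of Ccl9 at 6.99 ± 1.12 RPKM. In LN, Cxcl10 led at 5.09 ± 0.698 RPKM (27.2%), before Ccl5 at 3.74 ± 0.414, Ccl25 at 1.97 ± 0.23 (10.6%) and Ccl4 at 1.74 ± 0.709 RPKM (SD, n = 4), the last pair within their spread.

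**Figure D5:**
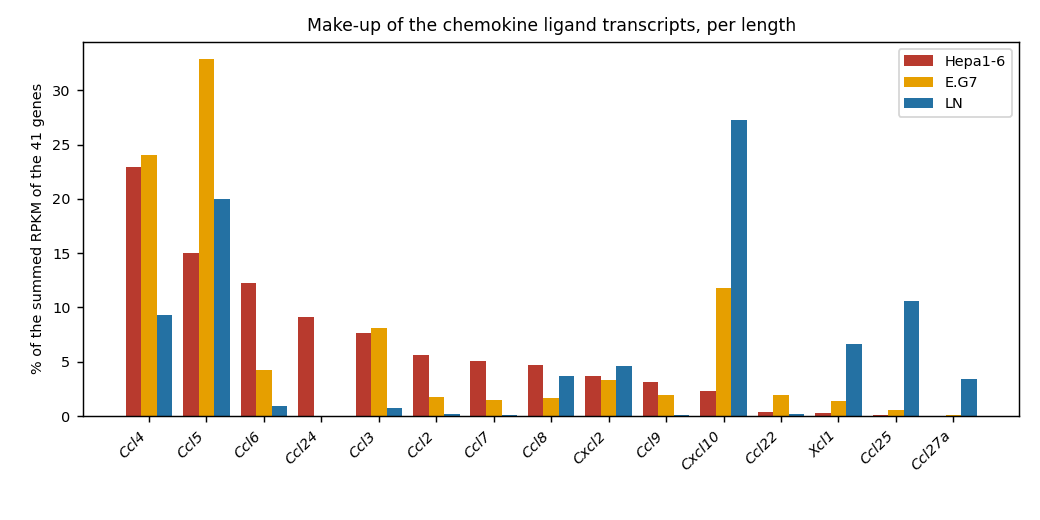
Share of each of 15 ligand genes in the summed mean RPKM of all 41 genes, in percent, for Hepa1-6 (n = 4), E.G7 (n = 2) and LN (n = 4). Bars start at 0 and have no error bars. Ccl4 has the largest share in Hepa1-6 (23.0%), Ccl5 in E.G7 (32.8%) and Cxcl10 in LN (27.2%), and Ccl24 has 9.09% in Hepa1-6.

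Receptors of these ligands were read in the same libraries. Of the 17 tested typical chemokine receptor genes of 18, 11 were higher in Hepa1-6 than in LN, 5 were lower (Ccr4, Ccr6, Ccr7, Ccr10 and Cxcr5) and Ccr9 was not called. In E.G7 against LN, 11 were higher and 3 lower (Ccr4, Ccr6 and Cxcr5), and in Hepa1-6 against E.G7, 11 were higher and 5 lower (Ccr6, Ccr7, Ccr9, Ccr10 and Cxcr5), or 7 higher with a minimum fold of 2. The Ccr10 call was lost without E.G7 replicate 2 (adjusted p = 0.288). The higher share of these 17 receptor genes was 64.7% in each comparison, where 37.0%, 32.7% and 26.1% of all genes tested were higher. The lower shares were 29.4%, 17.6% and 29.4%, where 31.1%, 27.2% and 19.6% of all genes were lower. In both comparisons with LN, lower calls were thus no more frequent than among all genes. The medians of the log2 fold changes of these receptor genes were 1.64, 1.31 and 0.73. Of the 4 tested atypical receptors, which bind chemokines without the usual signal, 2, 3 and 2 were higher and 1, 1 and 2 lower in the same comparisons. Without E.G7 replicate 1 or 2, the calls of Ackr4 in E.G7 against LN (adjusted p = 0.0813 and 0.0701) and of Ackr3 (0.0788 and 0.0698) and Ackr4 (0.0962 and 0.126) in Hepa1-6 against E.G7 were lost.

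Receptors of the inflammatory CC ligands were higher in the tumours as well. Ccr1, a receptor gene typical of myeloid cells, averaged 124 ± 7.28 CPM in Hepa1-6, 16.5 ± 1.42 CPM in E.G7 and 0.726 ± 0.133 CPM in LN libraries (SD, n = 4, 2 and 4). Ccr2 averaged 534 ± 22.1 CPM in Hepa1-6, 193 ± 9.28 CPM in E.G7 and 28.7 ± 1.57 CPM in LN. Ccr3, the eotaxin receptor gene, averaged 16.1 ± 1.48, 4.23 ± 0.991 and 1.76 ± 0.433 CPM. For all of these, tumour libraries were above LN and Hepa1-6 above E.G7 at an adjusted p under 0.05.

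The receptors known from Treg cells went different ways. Ccr8, the receptor of Ccl1 and Ccl8, averaged 693 ± 40.0 CPM in Hepa1-6, 417 ± 9.75 CPM in E.G7 and 97.9 ± 3.31 CPM in LN libraries (SD, n = 4, 2 and 4). Ccr4, the receptor of Ccl22 and Ccl17, averaged 37.8 ± 3.75 CPM in Hepa1-6, 31.0 ± 1.62 CPM in E.G7 and 49.7 ± 2.65 CPM in LN, and fell by 0.40 and 0.68 on the log2 scale relative to LN (edgeR adjusted p = 5.27e-04 and 3.59e-05). When libraries were scaled to pan T cell genes, the Hepa1-6 call was lost (log2 -0.13, adjusted p = 0.19), and that between the tumours (log2 0.28, adjusted p = 0.0338) under several alternatives, among them upper-quartile scaling (0.0984) and the omission of E.G7 replicate 1 (0.235) or 2 (0.0808). Cxcr3 averaged 221 ± 5.75, 176 ± 3.16 and 70.9 ± 3.91 CPM and Cxcr6 511 ± 18.8, 255 ± 8.26 and 35.2 ± 4.10 CPM in Hepa1-6, E.G7 and LN, all of these differences passing the test. Cx3cr1, known from monocytes and macrophages, averaged 52.7 ± 4.39, 12.0 ± 1.81 and 0.285 ± 0.11 CPM, and Xcr1, a marker of cross-presenting dendritic cells, 9.17 ± 0.888, 5.38 ± 1.21 and 3.30 ± 0.76 CPM in the same order. The Xcr1 calls of E.G7 over LN and of Hepa1-6 over E.G7 were lost without E.G7 replicate 1 (adjusted p = 0.196) and without replicate 2 (adjusted p = 0.161), each for its own comparison. Cxcr2, the neutrophil receptor gene, averaged 1.75 ± 0.582 CPM in Hepa1-6, 0.37 ± 0.0498 CPM in E.G7 and 0.274 ± 0.282 CPM in LN libraries, and Cxcr1 had 0 reads in all. The Cxcr2 call of Hepa1-6 over LN had a log2 fold change of 2.65, or 3.55 without LN replicate 4, and the call over E.G7 (adjusted p = 0.0212) was lost without E.G7 replicate 1 (0.141) or 2 (0.11).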

How the data were processed

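The values are whole-number read counts for 55291 genes, deposited by the authors as 1 table in the layout that featureCounts writes, with exon coordinates and gene lengths, per the file headers. HISAT2, Subread, featureCounts, RSEM and DESeq2 and the build mm10 are named in the submitters' processing notes; their roles, versions and strand setting are not given in the sources used here, so levels of genes with overlapping exons are uncertain. Gene length, another deposited column of the authors' table, was used to compute RPKM from CPM. Deposited FPKM tables were not used.

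The test was edgeR 4.0.16 (R 4.3.3): filterByExpr kept 20068 genes, libraries were scaled by TMM, and a quasi-likelihood model with group terms and robust settings was fitted to all 10 libraries. Calls are Benjamini-Hochberg adjusted p under 0.05 over all genes tested, with no minimum fold. SE was derived as the log2 fold change over the root of the F statistic. Where a group had no read, folds are lower bounds against 3 counts over the group; with 1 to 3 reads, ratios have exact 95% intervals. Floors and counting intervals cover counting error only. Tested on simulated data, the model recovered most large changes, missed many small ones, and made false calls at a share somewhat above the threshold.

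Groups were taken from the sample titles. Replicate pairs differed beyond sampling noise (chi-square per degree of freedom 7.41 to 18.9), so none was counted as a second run of the same library. This check cannot tell separate animals from separate libraries made from the same RNA. Genes at 20 CPM or more in some group were given library by library, those from 1 to 20 CPM as means, and lower ones by count; Ccl22 and Ccl25 (library by library) and Cxcl12 (means) are exceptions chosen after their values were seen. Members, marker lists and receptor lists were chosen with earlier results of these data known. Alternatives were RLE, upper-quartile and pan T cell scaling, other filters, DESeq2 1.42.0, limma-voom (limma 3.58.1), a replicate block, only the groups compared, a minimum fold of 2 and leaving out each library. Promoters came from RefSeq on GRCm38.p6, matched by symbol.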

Additional observations from a re-analysis of the deposited data

Results flagged for a closer look

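For the ligand genes with any difference among libraries, in Hepa1-6 and in LN, 64 groups of 4 libraries were examined. A library was flagged as far from the other 3 in 12, where chance flags about 1 in 20 if values spread normally. A gene with reads in only 1 library of a group is always flagged (Ccl27b, Ccl24, Cxcl14 and Ccl28). The 12 can therefore not be read as an excess over chance. Groups of 2 libraries were not examined. In Hepa1-6 the flagged values were Cxcl15 in replicate 4 (16.7 CPM), Cxcl13 in replicate 3 (3.01 CPM), Ccl9 in replicate 4 (264 CPM), Ccl22 in replicate 4 (17.7 CPM, lower than the others) and Ccl27b in replicate 3 (0.0413 CPM, its only read). In LN they were Ccl28 in replicate 1 (0.514 CPM), Ccl22 in replicate 1 (0.237 CPM), Ccl9 in replicate 4 (0.155 CPM), Ccl24 and Cxcl14 in replicate 4 (0.0388 CPM each, 1 read), and Cxcl9 in replicate 2 and Ccl2 in replicate 4 (0 CPM each). Most of the LN flags rest on a few reads.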

How the results depend on the processing

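The number of ligand genes called higher stayed within 1.5 times its value under every alternative run: 21 to 29 in Hepa1-6 against LN, 20 to 24 in E.G7 against LN and 20 to 27 in Hepa1-6 against E.G7, the lowest each time with the filter of 10 CPM, which left 22 ligand genes to test. The range over fits without 1 library was 28 to 29, 23 to 24 and 24 to 27. The number called lower, 0 in each comparison, became 2 with upper-quartile scaling and with limma-voom and 1 with no filter, the filter of 10 CPM and the replicate block in Hepa1-6 against LN (0 to 1 without 1 library), and 1 with upper-quartile scaling and with limma-voom in E.G7 against LN (0 to 2 without 1 library, the 2 without E.G7 replicate 1). It became 1 with the replicate block in Hepa1-6 against E.G7 (0 to 1 without 1 library, the 1 without Hepa1-6 replicate 3).

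Directions turned round only for genes that had not been called, and the cause was not tested. Ccl27a in Hepa1-6 against LN (log2 0.08) was at -0.10 with upper-quartile scaling and ran from -0.0460 (without Hepa1-6 replicate 2) to 0.17 over fits without 1 library. Ccl25 in E.G7 against LN (log2 -0.03) was at 0.0156 with RLE scaling and with DESeq2, 0.23 with pan T cell scaling, 0.0057 with no filter, 0.13 with the replicate block and 0.00104 with only the groups compared, and ran from -0.11 to 0.0319 without 1 library. Ccl20 in Hepa1-6 against E.G7 (log2 0.14) ran from -0.83 (without E.G7 replicate 2) to 4.44 (without E.G7 replicate 1). Of the receptor genes, Ccr9 in Hepa1-6 against LN was at -0.0579 with upper-quartile scaling, Ccr7 in E.G7 against LN at 0.13 with pan T cell scaling, and Ccr10 in the same comparison at 0.19 with pan T cell scaling and 0.0121 with the replicate block, and from -0.48 to 0.24 without 1 library.

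Replicate numbers did not pair the libraries: the correlations of same-numbered libraries were -0.05 to 0.03 over 8 pairs, and 1 of 10 libraries correlated best with its own number. Under the replicate block, 29, 23 and 25 ligand genes were higher in Hepa1-6 against LN, E.G7 against LN and Hepa1-6 against E.G7, without Ccl11 and Cxcl12 in the last (adjusted p = 0.059 and 0.0838).

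Scaling to pan T cell genes moved the median log2 fold change of all genes to 0.31 in Hepa1-6 against LN and 0.28 in E.G7 against LN, and the higher share of all calls to 69.2% and 68.5%, against 54.3% and 54.6%. Upper-quartile scaling moved the first median to -0.13 and its share to 45.05%. The same ligand counts were called higher over LN under both, 29 and 23. With 2 libraries, E.G7 values of low genes rest on few reads, and LN values of most ligand genes on under 40 reads over the group, so that their folds are far less certain than their calls.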
